A study of Mus musculus with 41 samples.

Results

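The immediate early transcription factors are genes that respond to a stimulus within minutes, with no need for new protein synthesis. 10 of them were followed here, of 17097 genes with a named probe set, in RNA of epidermal stem cells from mice on a high fat diet or a control diet. The 10 genes, Fos, Fosb, Jun, Junb, Egr1, Egr2, Egr3, Atf3, Klf6 and Ier2, were taken by name through the annotation of the array platform. They have 14 probe sets, 2 each for Jun and Egr2, 3 for Klf6 and 1 for each of the others. Where a gene had several, the brightest on average gave its main value, and the remaining 4 are given beside it.

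Both diets were fed to wild type female mice of the strain C57B6/J from 8 weeks of age for 7 weeks, so that the animals were 15 weeks old at collection. Collection was at 6 zeitgeber times 4 h apart, from ZT0, by convention lights on, to ZT20. The high fat diet has 21 arrays, with 3, 4, 2, 4, 4 and 4 in order of time, and the control diet has 20, with 4, 3, 2, 3, 4 and 4. All groups share the genotype and the sex, and the tissue is given as epidermis. The design text has 4 animals for each diet and time and places the animals of a collection day in a single time point. Collection day and time point therefore cannot be told apart. That text does not settle whether both diets were collected on the same day, and if they were not, diet and day within a time point cannot be told apart either. The labels number the replicates without saying that each is a separate animal, and what the p-values measure is array-to-array spread, which may be technical. The labels do not say how the stem cells were isolated or how long this took.

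Fos, Fosb, Jun and Junb encode subunits of AP-1, a dimeric factor in which a Jun protein pairs with another Jun, a Fos or an ATF protein. Atf3 encodes a factor of the same leucine zipper class that is induced by many kinds of cell stress. Egr1, Egr2 and Egr3 encode zinc finger factors that bind GC-rich sites, Klf6 encodes a zinc finger factor of the Krüppel-like family, and Ier2 encodes a small nuclear protein of the same rapid response. In skin these genes are known to rise on wounding, on growth factor signals and also while tissue is being cut and digested, which makes their level sensitive to handling.

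Transcription of such genes is classically driven through short promoter elements, among them the CArG box bound by serum response factor and the cAMP response element bound by CREB and ATF proteins. RefSeq promoter windows (GRCm38.p6, 250 bases before to 50 after a start site) were given for 7 of the 10 genes, and Egr1, Egr3 and Ier2 are named only. The stretches below run from 130 bases before the annotated start to 20 after it, 5′ to 3′ on the strand of the gene, for the genes of the set in which a searched motif was found. Capitals mark the motif. Fos lies at chr12:85473760-85473909 on the plus strand, Fosb at chr7:19310026-19310175 on the minus strand, Atf3 at chr1:191183314-191183463 on the minus strand, Egr2 at chr10:67537739-67537888 on the plus strand and Klf6 at chr13:5861359-5861508 on the plus strand.
Fos: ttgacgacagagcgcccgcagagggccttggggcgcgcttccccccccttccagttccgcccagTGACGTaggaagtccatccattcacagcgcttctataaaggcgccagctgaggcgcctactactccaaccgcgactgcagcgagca
Fosb: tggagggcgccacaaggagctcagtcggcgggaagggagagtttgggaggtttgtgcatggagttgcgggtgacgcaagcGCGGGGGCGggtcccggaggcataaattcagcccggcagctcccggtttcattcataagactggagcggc
Atf3: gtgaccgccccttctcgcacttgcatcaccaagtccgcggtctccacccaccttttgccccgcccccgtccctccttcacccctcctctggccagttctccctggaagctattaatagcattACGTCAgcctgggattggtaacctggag
Egr2: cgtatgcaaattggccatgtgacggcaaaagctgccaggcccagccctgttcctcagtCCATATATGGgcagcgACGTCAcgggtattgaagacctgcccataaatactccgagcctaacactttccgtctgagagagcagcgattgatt
Klf6: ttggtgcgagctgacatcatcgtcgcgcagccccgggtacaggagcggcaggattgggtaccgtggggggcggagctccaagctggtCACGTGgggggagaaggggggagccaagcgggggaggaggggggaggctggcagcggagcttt
The Egr2 stretch holds a CArG box at 72 to 63 bases before the start and, beside it, a TGACGT read on the other strand. Egr2 has 5 windows in the table, and the one shown is the first of 3 that start within 100 bases of each other. Among the Egr2 windows not shown, the one from 67535249 holds CACGTG at 27 to 22 bases before its start. The one from 67537316 holds a different CArG box at 72 to 63 bases before its start. Fos holds TGACGT at 66 to 61 bases before its start, and Atf3 holds it on the other strand at 8 to 3 bases before. In the stretches shown, Klf6 holds CACGTG, and Fosb holds a match to GCGNGGGCG, the letters recognised by Egr proteins. Jun and Junb hold none of the motifs searched. Both strands were searched. CArG boxes occur in 1.63% of all 32851 windows in the table, TGACGT in 7.51%, CACGTG in 7.15% and GCGNGGGCG in 5.55%. TGACGTCA (1.79%, a motif that contains TGACGT) and TGANTCA (7.81%) were in none of the 7 genes' windows. TGACGT alone was added to the search after the sequences had been read. A match describes letters and shows no binding.

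Over all arrays the values ran from 2.17 to 13.5 on the log2 scale, array medians lay between 6.41 and 6.44, and arrays correlated at 0.938 to 0.995. The 2 control arrays of ZT8 stood apart on the second principal component (-33.1 and -42.7, a component with 16.5% of the variance), where those of ZT12 from the high fat diet were at 14.8 to 26.4. The 2 high fat arrays of ZT8 differed on the first component (-6.47 and -31.0). Basal keratinocyte markers averaged 10.78 to 11.86 per array, suprabasal markers 8.78 to 9.90 and bulge markers 7.77 to 8.50. Fibroblast markers averaged 5.79 to 6.43, endothelial markers 5.53 to 5.69 and leukocyte and Langerhans cell markers 6.31 to 7.23. Krt5 and Krt14, the keratins of basal cells, had group means of 12.53 to 12.75 and 11.94 to 12.76, and Krt1, a suprabasal keratin, of 12.47 to 12.95. The RMA scale has no 0, so no marker can be listed as absent.

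At ZT12 the immediate early genes were lower on the high fat diet. Of the 10 genes 7 fell and 0 rose, at a Benjamini-Hochberg adjusted p below 0.05 over all genes in limma. Among all genes 4.44% were called lower at ZT12 and 18.0% were called in either direction. No member rose at an unadjusted p below 0.05 either. The median difference of the 10 genes, high fat minus control, was -0.23, beside 0.05 for all genes. In RNA from a cell population, fewer cells with a transcript and less of it per cell cannot be told apart.

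Egr2, whose product is known for directing differentiation in nerve sheath and hair, fell most among the 10 main probe sets. Its values were 10.76, 11.25, 11.32 and 11.20 in the high fat arrays, against 11.60, 11.61 and 11.75 in the control arrays. All high fat arrays lay below all control arrays, and the first high fat array was the lowest. The difference was -0.52 ± 0.12 (SE), a ratio of 0.696, with an adjusted p of 0.00324 in limma. The other Egr2 probe set fell by 0.60 (adjusted p = 0.00151). Egr1 was at 12.54, 12.64, 12.72 and 12.61 in high fat arrays, against 12.83, 12.87 and 12.89 in control arrays. These groups did not overlap either, and Egr1 fell by 0.23 ± 0.06 (adjusted p = 0.00415). Egr3, the remaining member of the family, was at 8.38, 8.65, 8.41 and 8.31 on the high fat diet and 8.46, 8.50 and 8.42 on the control diet. Its arrays overlapped, and its difference of -0.02 had a 95% interval from -0.26 to 0.22.

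The AP-1 subunits divided. Fosb was at 12.52, 12.62, 12.63 and 12.72 in high fat arrays, against 12.86, 12.90 and 12.95 in control arrays, and Fos at 12.15, 12.28, 12.26 and 12.30, against 12.43, 12.35 and 12.45. Both sets of arrays were apart. Fosb fell by 0.28 ± 0.05 (adjusted p = 0.000688) and Fos by 0.16 ± 0.05 (adjusted p = 0.0173). Jun was at 11.71, 11.80, 11.68 and 11.69 in high fat arrays and at 12.05, 12.14 and 12.15 in control arrays, a difference of -0.39 ± 0.12 (adjusted p = 0.0185). The second Jun probe set did not show this fall, with means of 11.29 on the high fat diet and 11.32 on the control diet and a difference of -0.03 (adjusted p = 0.894), so the Jun call rests on 1 of its 2 probe sets. Junb, whose product can oppose that of Jun, was at 9.49, 9.25, 9.82 and 9.72 on the high fat diet and at 9.30, 9.32 and 9.66 on the control diet. These arrays overlapped, and the interval of its difference ran from -0.21 to 0.50.

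Atf3 was at 12.19, 12.35, 12.41 and 12.37 in high fat arrays, against 12.53, 12.53 and 12.64 in control arrays. It fell by 0.24 ± 0.06 (adjusted p = 0.00502). Klf6 was at 11.74, 11.96, 11.96 and 11.94 in high fat arrays, against 12.34, 12.26 and 12.19 in control arrays. The groups were apart for both genes. Klf6 fell by 0.37 ± 0.08 (adjusted p = 0.00309), and its other 2 probe sets fell by 0.68 and 0.52 (adjusted p = 0.00426 and 0.00582). Ier2 was at 9.11, 9.26, 9.55 and 9.67 on the high fat diet and at 9.22, 9.06 and 9.59 on the control diet, with overlap and a difference of 0.11 (interval -0.27 to 0.48). The 7 genes called were the same 7 whose arrays did not overlap between the diets, a pattern that 7.64% of all genes showed in that direction.

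**Figure D1:**
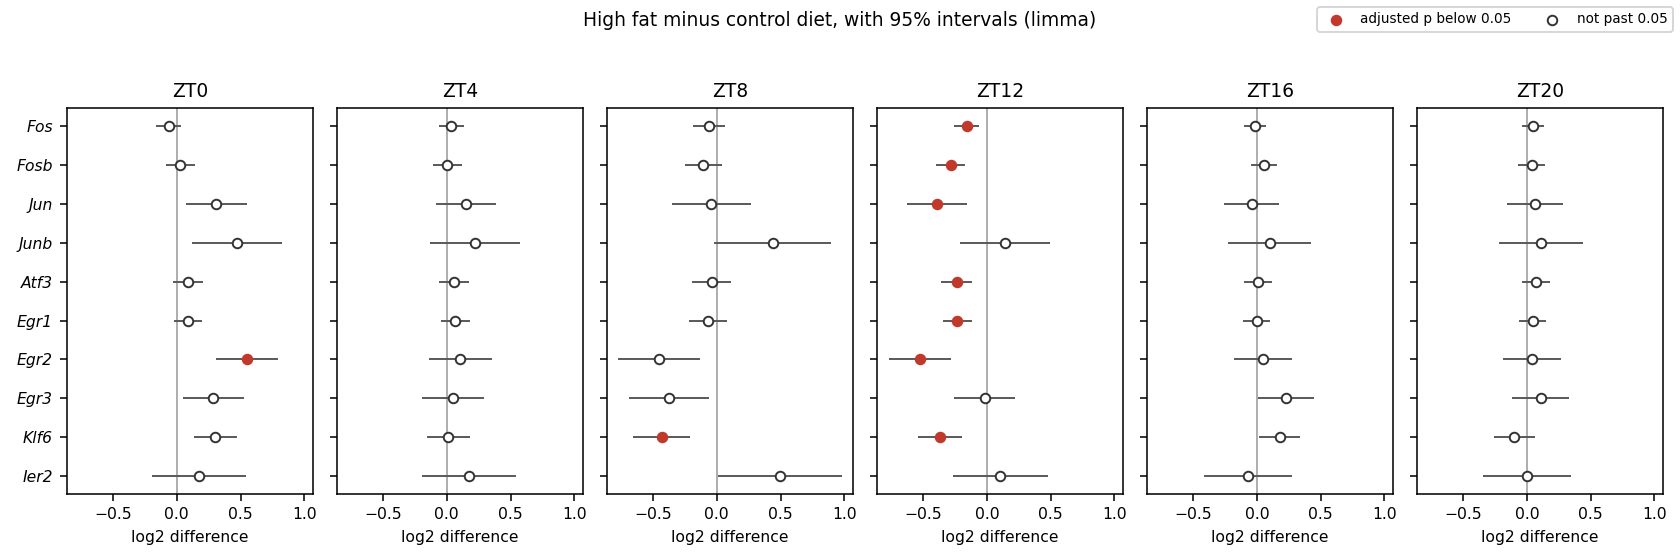
Difference between the diets (high fat minus control, log2) for each gene at each zeitgeber time, with 95% intervals from limma; filled points have an adjusted p below 0.05 over all genes. The 7 filled points at ZT12 lie to the left of 0, from -0.16 for Fos to -0.52 for Egr2, and Egr3, Junb and Ier2 are open.

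Fosb, Atf3, Egr1, Egr2 and Klf6 stayed past the threshold at ZT12 with each array left out in turn. Fos missed it without control replicate 1 or 3 or high fat replicate 1 of ZT12 (adjusted p up to 0.0827), and Jun without control replicate 2 or 3 (adjusted p up to 0.0683).

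The fall at ZT12 was set against the other times with contrasts chosen after the values were seen. They use the same ZT12 arrays, so their counts are no independent support for the fall. The diet difference at ZT12 was lower than the mean of the other 5 differences for 6 of the 10 genes (2.79% of all genes), Jun by 0.48 and Egr2 by 0.58, while Fos had -0.15 (adjusted p = 0.0634). Within the high fat diet, ZT12 was below the mean of the other times for 6 genes (8.14% of all genes), Fosb, Atf3, Egr1, Egr2, Egr3 and Klf6. Within the control diet 1 gene was called, Jun, which stood 0.35 above its other times (adjusted p = 0.0268, with 5.31% of all genes called either way). Junb and Ier2 were called in none of the 3 contrasts. All 3 used main probe sets, and the second Jun set, with a diet difference of -0.03 at ZT12, was not put to them.

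At ZT0 the sign was the other way for most of the genes, with 9 of 10 estimates above 0 and a median difference of 0.23, beside 0.01 for all genes. Such a count of signs was not particular to ZT0, since 10 of 10 estimates were above 0 at ZT4 and 9 of 10 at ZT20, where no gene of the set was called. Egr2 was the gene called, of 0.450% of all genes called higher. Its values were 12.10, 11.81 and 11.81 in high fat arrays, against 11.23, 11.17, 11.38 and 11.65 in control arrays. The groups were apart, the difference was 0.55 ± 0.12 (adjusted p = 0.0216), and the second probe set gave 0.65 (adjusted p = 0.00841). Klf6 stood at 12.16, 12.14 and 12.17 on the high fat diet, against 11.82, 11.81, 11.74 and 12.04 on the control diet, a difference of 0.30 with an adjusted p of 0.0756. Egr2, Egr3 and Klf6 were higher on the high fat diet without overlap, as were 7.76% of all genes. Another 4 genes, Jun, Junb, Egr3 and Klf6, had an unadjusted p below 0.05 in this comparison, as did 12.9% of all genes.

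Control replicate 4 of ZT0 was the highest of its group in all 10 genes. Junb, for example, was at 9.73 there, and at 8.88, 9.01 and 8.93 in the other control arrays, against 9.72, 9.58 and 9.53 in the high fat arrays. Without this array 3 genes were called at ZT0, with Junb at 0.67 (adjusted p = 0.0391), Egr2 at 0.65 (0.00754) and Klf6 at 0.37 (0.0379). Leaving out any other array of ZT0 left 0 genes called, with Egr2 at an adjusted p of 0.0526 to 0.120.

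At ZT8, with 2 arrays a diet, Klf6 was at 11.85 and 11.85 in high fat arrays, against 12.30 and 12.27 in control arrays. It fell by 0.43 ± 0.11 (adjusted p = 0.0125) and was the 1 gene called, of 2.92% of all genes called lower. Egr2 stood at 11.82 and 11.97 on the high fat diet and at 12.35 in both control arrays, a difference of -0.45 (adjusted p = 0.0699), and its second probe set passed with -0.53 (adjusted p = 0.0430). The 2 further Klf6 probe sets had -0.52 and -0.16 and did not pass. The Klf6 call was lost without control replicate 1 (adjusted p = 0.0521), control replicate 2 (0.0804) or high fat replicate 1 (0.0712) of ZT8, and leaving out high fat replicate 1 of ZT12 made it 2 calls, with Egr2. Without overlap between diets, 5 genes were lower and 2 higher, beside 18.5% and 28.0% of all genes in a comparison of 2 arrays with 2. The basal keratinocyte markers were low in these groups, at 10.78 and 11.60 with the high fat diet and 10.88 and 10.98 with the control diet, and the suprabasal markers were high, at 9.03 and 9.90 and at 9.58 and 9.79. At ZT8 8.34% of all genes were called either way. Of 11 leukocyte and Langerhans cell markers 3 rose, led by Cd3e at 0.92 and H2-Aa at 0.79, while Cd52 had -0.48 without a call. The list was at 6.72 and 6.76 on the high fat diet and at 6.31 and 6.57 on the control diet. Suprabasal markers had 3 of 12 lower, Calm4 (-0.64), Dsg1a (-0.63) and Sbsn (-0.55). Bulge markers had 3 of 10 called, Nfatc1 (-1.01), Lhx2 (-0.90) and Postn (0.87). Hair matrix markers had 2 of 6 lower, Krt25 (-0.86) and Krt71 (-0.62). Krt14 was the 1 basal marker of 11 called (0.37), and the fibroblast and endothelial lists had 1 fall each. Of 11 heat shock genes 3 rose, Hsp90aa1 by 0.81, Hspa8 by 0.35 and Hspe1 by 0.32, and Hspa4l fell by 0.80. The part of these genes and cells in the ZT8 values was not tested.

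At ZT4, ZT16 and ZT20 limma called 0 of the 10 genes, where 0.386%, 1.24% and 0.702% of all genes were called. At an unadjusted p below 0.05 there were 0, 2 and 0, beside 11.9%, 16.1% and 14.8% of all genes. The 2 at ZT16 were Egr3 (0.23 ± 0.11) and Klf6 (0.18 ± 0.08), a count near the background. Averaged over the 6 times, Junb was higher on the high fat diet by 0.25 ± 0.07 (adjusted p = 0.0333), the 1 gene called of 5.52% of all genes called higher. Its means were 9.61, 9.62, 9.50, 9.57, 9.66 and 9.73 from ZT0 to ZT20 on the high fat diet, and 9.14, 9.39, 9.06, 9.43, 9.56 and 9.62 on the control diet. The estimate was positive at every time, and 0.44 at ZT8. The call was lost without the ZT8 arrays (0.21, adjusted p = 0.0845), without the ZT12 arrays (0.27, 0.0908), or without any 1 of control ZT4 replicate 3, control ZT8 replicate 2, control ZT12 replicate 1 or 2 and high fat ZT8 replicate 1 (adjusted p of 0.0526 to 0.106).

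**Figure D2:**
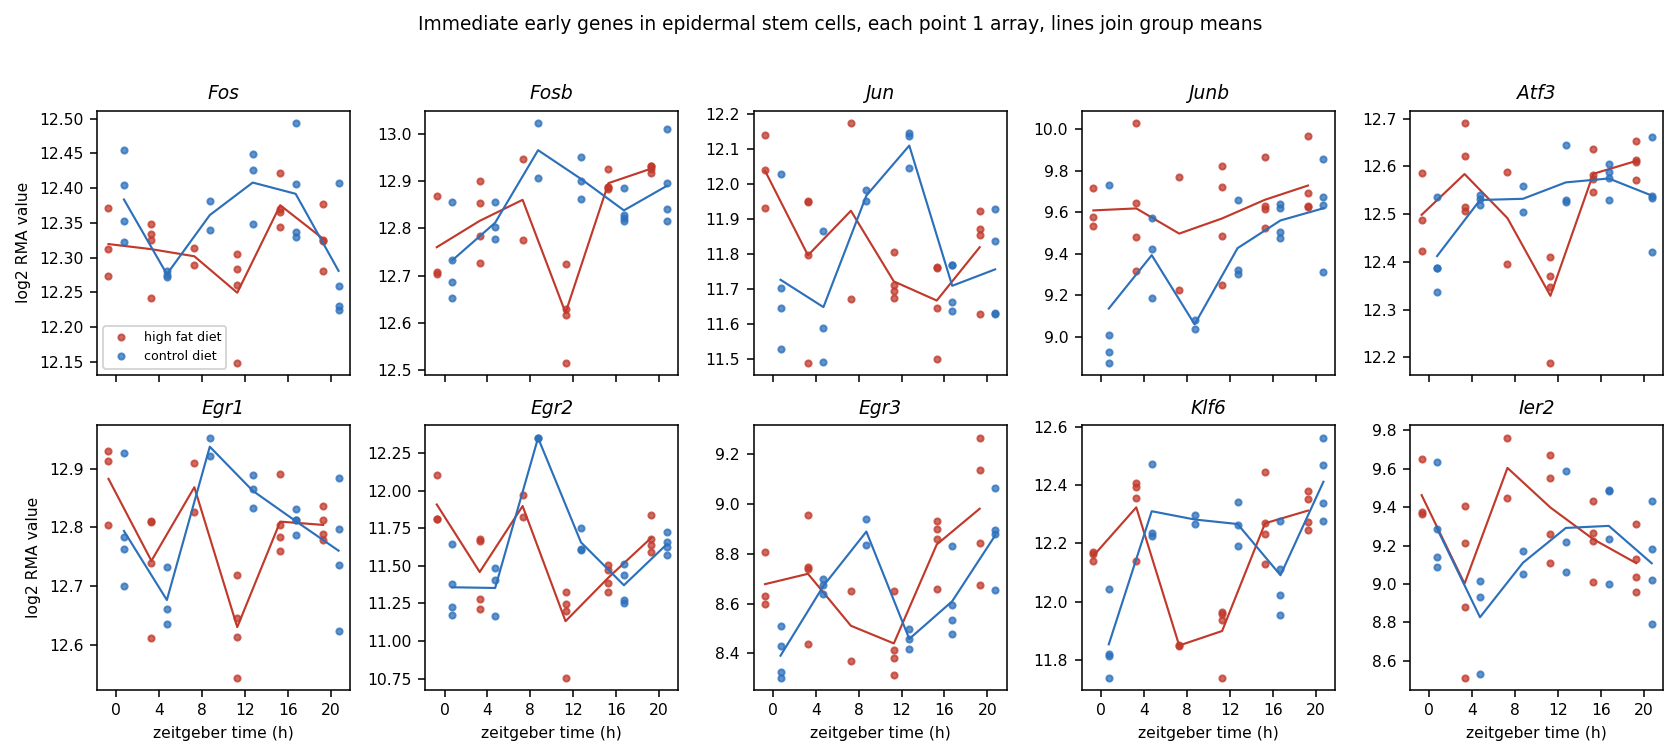
Log2 value of each gene (main probe set) against zeitgeber time; every point is 1 array, red for the high fat and blue for the control diet, and lines join group means. Each panel has its own vertical scale. The high fat points at ZT12 lie below the control points for 7 genes, and Egr2 on the control diet reaches 12.35 in both arrays of ZT8.

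Whether the difference between diets varied over the day was tested with an F test of 5 coefficients. It passed for 6 of the 10 genes, and for 19.0% of all genes. Adjusted p was 0.000421 for Klf6, 0.000675 for Egr2, 0.0102 for Fosb, 0.0232 for Egr1, 0.0286 for Atf3 and 0.0352 for Jun. Fos (0.118), Egr3 (0.0968), Junb (0.624) and Ier2 (0.611) did not pass. These are main probe sets, so the Jun call rests on the set that fell at ZT12. Without control replicate 3 or high fat replicate 1 of ZT12 the count was 3, in both cases Fosb, Egr2 and Klf6. Without all ZT12 arrays it was 2, Egr2 and Klf6, and without the ZT8 and ZT12 arrays it was 0, in a test of fewer coefficients.

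On the high fat diet 6 genes varied over the 6 times (Fosb, Atf3, Egr1, Egr2, Egr3 and Klf6), as did 41.5% of all genes, and on the control diet 7 did (Fosb, Jun, Junb, Egr1, Egr2, Egr3 and Klf6), as did 43.9%. Egr2 ran through 11.91, 11.46, 11.90, 11.13, 11.42 and 11.69 from ZT0 to ZT20 on the high fat diet, and through 11.36, 11.35, 12.35, 11.66, 11.37 and 11.64 on the control diet. It had its lowest mean at ZT12 on the high fat diet and its highest at ZT8 on the control diet. Klf6 ran through 12.16, 12.32, 11.85, 11.90, 12.27 and 12.31 on the high fat diet, and through 11.85, 12.31, 12.28, 12.27, 12.09 and 12.41 on the control diet. Fosb ran through 12.76, 12.82, 12.86, 12.62, 12.90 and 12.93, and through 12.73, 12.81, 12.97, 12.90, 12.84 and 12.89. On the high fat diet Egr2 and Fosb had their lowest mean at ZT12, while Klf6 was lowest at ZT8, with an adjusted p of 0.795 against its ZT12 mean in limma.

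The lowest high fat mean was at ZT12 for 6 genes, whereas the lowest control mean was at ZT0 for 4 genes and at ZT4 for 5. ZT16 was above ZT12 on the high fat diet for 6 genes (7.81% of all genes), Fos, Fosb, Atf3, Egr1, Egr3 and Klf6, and ZT20 was above ZT12 for 6 (8.24%), with Egr2 in place of Fos. The rise was 0.40 at ZT16 and 0.54 at ZT20 for Egr3 and 0.37 and 0.41 for Klf6. On the control diet ZT8 was above ZT0 for 4 genes (9.89% of all genes), Fosb, Egr2, Egr3 and Klf6, and Egr2 gained 0.99 ± 0.14. ZT20 was above ZT0 for 4 (6.63%), Fosb, Junb, Egr3 and Klf6, with Klf6 at 0.56 ± 0.08. Without the ZT12 arrays 2 genes still varied over the high fat day, and without the ZT8 arrays 3 still varied over the control day. Without control ZT8 replicate 2 alone that last count was 4.

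When the 6 times of each gene are put in order of level, neighbours in the order were mostly too close to separate. Of 50 neighbouring pairs in each diet 1 differed at an adjusted p below 0.05. On the high fat diet it was Klf6 at ZT0 above ZT12 (0.0391), and on the control diet Egr2 at ZT8 above ZT12 (0.000695). Over all pairs of times, 31 of 150 were called on the high fat diet, where 11.6% of all genes' pairs were, and 23 of 150 on the control diet, where 13.7% were. The control count is near its background.

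A 24 h cosine was called about as rarely in the 10 genes as in genes at large. On the high fat diet it passed for Egr3 alone (adjusted p = 0.0496), of 11.2% of all genes, with an amplitude of 0.24 ± 0.07 and a peak at ZT20.8. Another 4 members had an unadjusted p below 0.05, as did 27.6% of all genes. Egr3 means on the high fat diet were 8.68, 8.72, 8.51, 8.44, 8.84 and 8.98 from ZT0 to ZT20. That call sat at the threshold, and 25 of the 41 fits that leave out an array had 0 calls, among them each high fat array of ZT12 and ZT16 and 12 control arrays, while leaving out high fat replicate 2 or 3 of ZT0 gave 2 and high fat replicate 1 of ZT8 gave 3. On the control diet limma called 0 genes by cosine (6.66% of all genes), with 2 at an unadjusted p below 0.05, Jun and Junb (21.3% of all genes), and 1 call (Jun) without control replicate 4 of ZT0. The difference between the cosines was called for 0 genes (3.58% of all genes), with 6 at an unadjusted p below 0.05 (17.5% of all genes) and an adjusted p of 0.0655 for Atf3, 0.0713 for Egr2 and 0.0861 for Jun. Leaving out high fat replicate 1 of ZT8 brought 5 calls there, Fosb, Jun, Atf3, Egr1 and Egr2. Leaving out high fat replicate 2 or 3 of ZT0, high fat replicate 3 of ZT4, high fat replicate 2 of ZT8, control replicate 4 of ZT0 or control replicate 2 of ZT20 brought 1 call each.

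Several of the probe sets sit near the top of the array's scale, where a spot can approach saturation and changes are compressed. Fosb had at most 0.171% of all probe sets above it on any array and stood 0.44 to 0.94 below the array's highest value. Egr1 stood 0.50 to 0.91 below it, Atf3 0.76 to 1.27, Klf6 0.89 to 1.76 and Fos 0.95 to 1.31. Egr3, Junb and Ier2, which stood at least 3.42 below the highest value, are the 3 genes not called at ZT12. The whole range of Fos over 41 arrays was 0.35, and that of Egr2 was 1.60. Scanner files were not used here, so whether a spot was saturated is not known, and a difference of a bright probe set may understate the change in RNA. Levels of different probe sets cannot be compared as amounts of RNA, which holds for the marker lists above as well.

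The spread between arrays of a group was smallest for the brightest probe sets. It was 0.0561 (SD) for Fos, 0.0685 for Fosb, 0.0692 for Egr1 and 0.0734 for Atf3, against 0.235 for Junb and 0.247 for Ier2. Genes at or above a mean just under that of Egr2 (11.55) numbered 248, including 7 of the members. Among these 248, 13.7% were called lower and 26.6% higher at ZT12, their median range was 0.479 (0.732 over all genes) and their median SD within a group was 0.0680 (0.127 over all genes). The other probe sets of Klf6, which read lower than its main set, fell by 0.68 and 0.52 at ZT12, where the main set fell by 0.37. The lower-reading set of Egr2 fell by 0.60, where its main set fell by 0.52. Jun went the other way, with -0.03 in its lower-reading set and -0.39 in its main set.

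**Figure D3:**
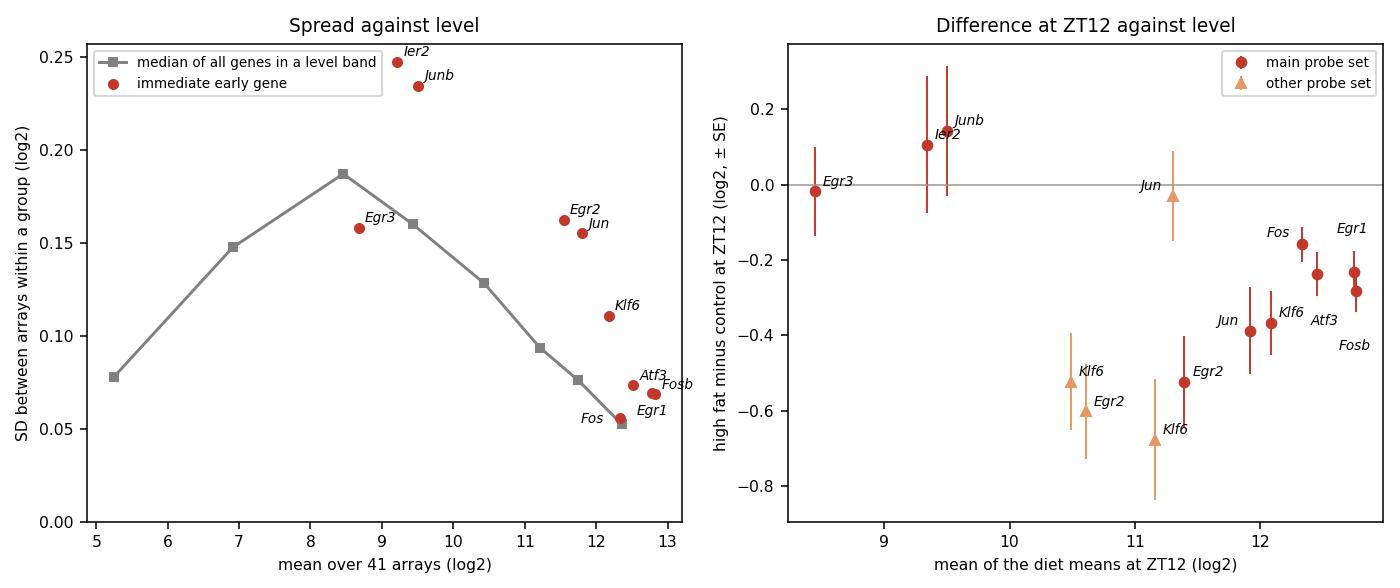
Left, SD between arrays within a group against the mean over 41 arrays (log2) for the 10 genes, with the median of all genes in 8 bands of level as a grey line. Right, diet difference at ZT12 (log2, ± SE) against the mean of both diets' means at ZT12, for main and other probe sets; 10 of the 11 sets with a level above 10 lie between -0.16 and -0.68, and the second Jun set is at -0.03.

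The 10 genes tended to vary together from array to array. Over 41 arrays the Pearson correlation of 2 members had a median of 0.345 and ran from -0.408 (Klf6 with Ier2) to 0.865 (Fosb with Atf3), with 42 of 45 pairs above 0. After the group means were taken out the median was 0.515, from -0.124 to 0.879, and again 42 of 45 were above 0. Arrays of a group may share a collection day, and all genes of an array share its RNA and scale, so these values are descriptions. Atf3 was closest to the mean of the other 9 within groups (0.915), followed by Fosb (0.832), and Egr3 was least so (0.230). Junb correlated with Ier2 at 0.83 within groups and Egr1 with Atf3 at 0.83. Single arrays moved most members at once. Besides control replicate 4 of ZT0, in groups of 3 or more arrays, the highest of the group in 8 genes were high fat replicate 1 of ZT0, control replicate 3 of ZT12 and control replicate 2 of ZT20. High fat replicate 1 of ZT12 and control replicate 1 of ZT20 were the lowest in 7.

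**Figure D4:**
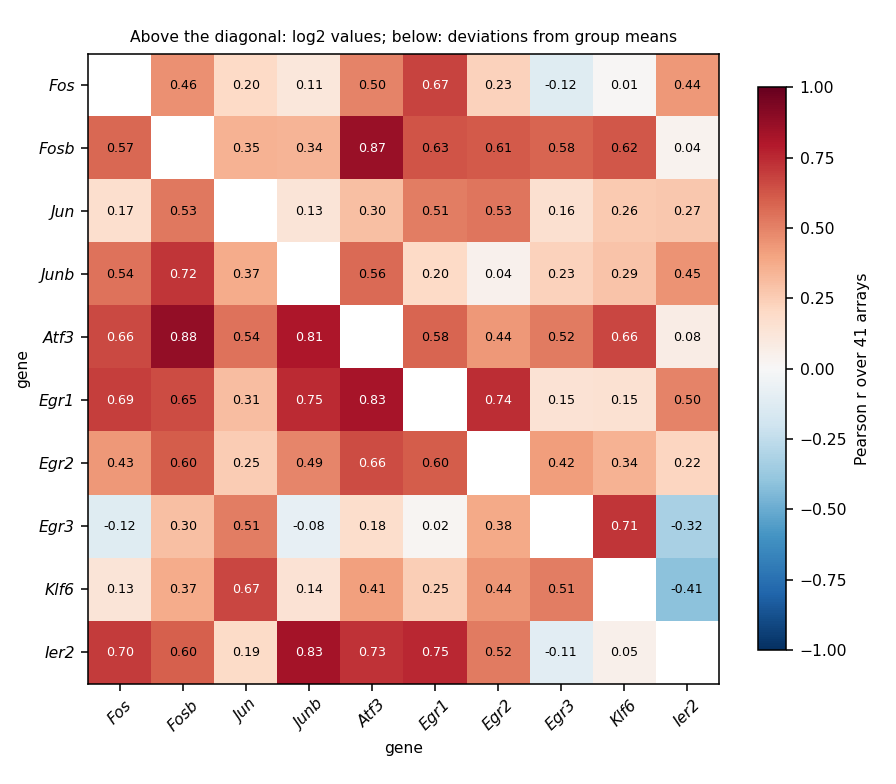
Pearson correlation between each 2 genes over 41 arrays, above the diagonal for log2 values and below it for deviations from the means of the 12 groups. Fosb and Atf3 form the highest pair on both sides of the diagonal (0.87 and 0.88), and the lowest is Klf6 with Ier2 over arrays (-0.41).

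Outside the set, the genes whose course over 41 arrays was most like the mean of the 10 were Btg2 (r = 0.880), an antiproliferative gene of the same rapid response, Jund (0.792), an AP-1 subunit, Rhob (0.784), a small GTPase, Clk1 (0.724), a splicing kinase, and Cd52 (0.705), a surface antigen of leukocytes. Within groups they were Btg2 (0.866), Dusp1 (0.854), a phosphatase that turns off MAP kinases, Cd55b (0.797), Tra2a (0.768) and Rhob (0.761). At ZT12 Btg2 fell by 0.52, Rhob by 0.44, Clk1 by 0.34, Cd52 by 0.71 and Tra2a by 0.62 on the high fat diet. Cd55b fell by 1.69, while Jund had -0.10 (adjusted p = 0.173) and Dusp1 -0.05 (0.611). Among all genes 4.44% were called lower at this time. The 41 arrays used to pick Btg2, Jund, Rhob, Clk1 and Cd52 include those of ZT12. A fall of these genes at ZT12 is therefore partly built into the choice and is no independent support.

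A list of 25 other rapid response genes, 24 of them measured, had 9 called lower and 1 higher at ZT12, with a median of -0.29. At that time 4.44% of all genes were called lower and 13.6% higher. Nr4a2, an orphan nuclear receptor, averaged 8.37 on the high fat diet and 9.48 on the control diet and fell by 1.12 ± 0.16. Its relatives Nr4a3 and Nr4a1 fell by 0.92 and 0.70, and Hbegf, a ligand of the EGF receptor, by 0.71. Gadd45b, a stress sensor, rose by 0.41 ± 0.14. At ZT0, where 0.450% of all genes were called higher, the same list had 6 genes higher, 0 lower and a median of 0.46. These were led by Arc at 1.27, Trib1 at 1.00, Hbegf at 0.93 and Nr4a2 at 0.91. Of 11 relatives of the AP-1 subunits 3 fell at ZT12, Fosl1 by 0.92, Fosl2 by 0.46 and Mafg by 0.28, and 2 rose at ZT0, Fosl1 by 1.19 and Fosl2 by 0.54. Both lists were chosen with results of these data known, so their direction is no independent support.

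**Figure D5:**
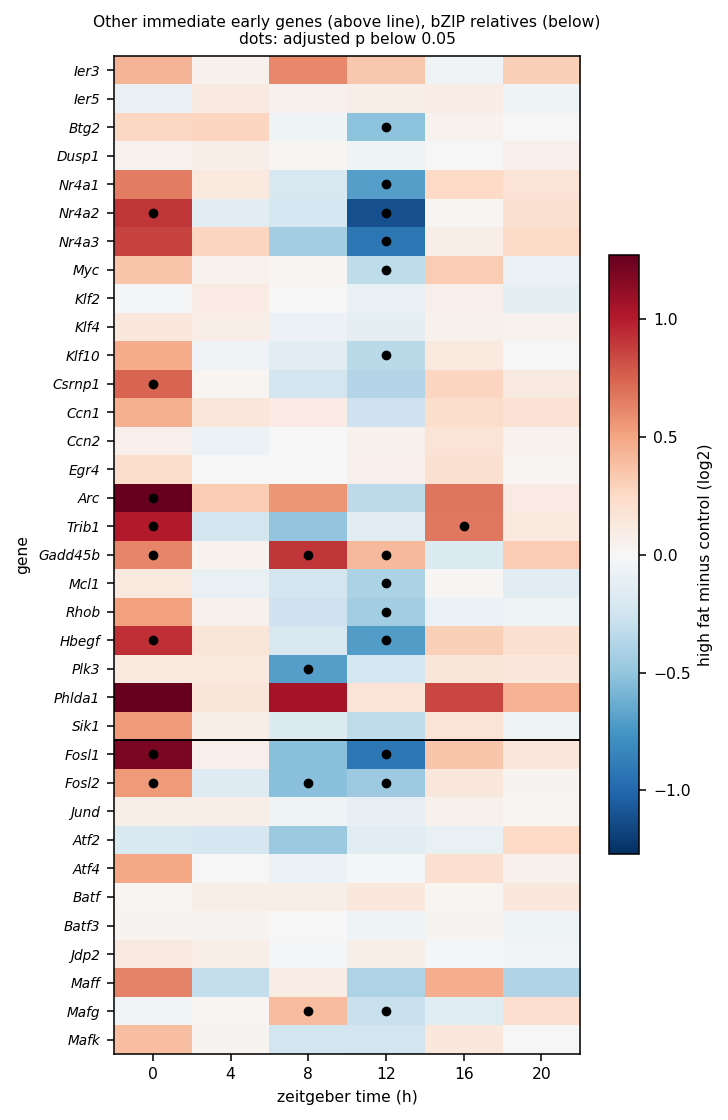
Diet difference (high fat minus control, log2, colour) by zeitgeber time for 24 other rapid response genes, above the line, and 11 AP-1 relatives, below it; dots have an adjusted p below 0.05. The ZT12 column holds 12 falls and 1 rise (Gadd45b) with a dot, and the ZT0 column holds 8 rises.

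At ZT12, where 18.0% of all genes were called, 3 further lists were read. Of 13 measured factors and kinases upstream of the set 2 were called. Creb1, which binds cAMP response elements, rose by 0.48 ± 0.12 and Mapk14, the p38 kinase, fell by 0.27 ± 0.08. Of 9 feedback inhibitors Spry4 rose by 0.14 ± 0.05. Neither of these lists was called more often than all genes. Glucocorticoid targets had 3 of 8 called, 2 lower and 1 higher. Zbtb16 and Fkbp5 fell by 1.36 and 1.17, and Cebpd rose by 0.61. The direction differed at other times. The mean of this list was highest at ZT12 on the control diet (10.24) and at ZT16 on the high fat diet (10.39). At ZT16 Tsc22d3 was called higher on the high fat diet (1.46, with 1.24% of all genes called), and at ZT20 lower (-0.86, with 0.702%).

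Heat shock genes, which can also respond to the warming and digestion of tissue, were read as well. Whether they report handling in these samples was not tested. Of 11 measured, Hspe1 rose by 0.37 and Hspb8 fell by 0.22 at ZT12 (18.0% of all genes called), with a median of -0.11. The array means of the list lay at 10.25 to 10.34 on the high fat diet and 10.29 to 10.37 on the control diet. At ZT0 and ZT4 0 of the 11 passed (0.854% and 0.386% of all genes), and at ZT8 the 4 named above did (8.34%). At ZT16 2 fell, Hsph1 by 0.66 and Hspa1b by 0.43 (1.24% of all genes called), and at ZT20 Hspe1 fell by 0.34 (0.702%). The difference between diets varied over the day for 7 of the 11, and for 19.0% of all genes. Within groups the heat shock list correlated with the mean of the 10 genes at 0.329, much as basal keratinocyte markers (0.332) and feedback inhibitors (0.345) did. Other rapid response genes had 0.786, the AP-1 relatives 0.561 and glucocorticoid targets 0.503. How long each animal's tissue was handled is not in the labels, so handling cannot be told apart from diet within a time point.

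Markers of other cells moved with the ZT12 comparison as well, in which 13.6% of all genes were called higher and 4.44% lower. Of 11 leukocyte and Langerhans cell markers 6 rose and 1 fell (Cd52), with H2-Ab1 up by 0.94, and the list ran from 6.96 to 7.15 in high fat arrays and from 6.80 to 6.91 in control arrays. Of 10 bulge markers 4 rose and 1 fell, led by Lgr5 at 1.32, and the list ran from 8.29 to 8.50 and from 7.98 to 8.03. Of 12 suprabasal markers 3 rose, with a list mean of 9.11 in high fat arrays and 8.90 in control arrays, without overlap, and of 7 melanocyte markers 2 fell. Basal markers overlapped, at 11.62 to 11.82 and 11.54 to 11.76. Within groups, which leaves out differences between groups, the leukocyte list correlated with the 10 genes at -0.163. The endothelial list had -0.418, the suprabasal list -0.241 and the basal list 0.332. Over all arrays the bulge list had -0.468, the leukocyte list -0.345 and the melanocyte list 0.305. The part of these cells in the falls of the immediate early genes was not tested.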

How the data were processed

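RNA of epidermal stem cells was measured on 41 Affymetrix arrays, 21 from mice on a high fat diet and 20 from mice on a control diet. Amplification took 17 cycles from 25 ng of RNA, and 8 µg of the cDNA went into labelling, per the labels' protocols. The deposited values are on the log2 scale, as their range shows, and were made by the authors with RMA, per the submitters' processing notes. RMA removes background, brings arrays to a common distribution and combines the probes of a set. Its version is not given in the sources used here. Scanner files were not used, so signal over background is unknown. Precision is set by the number of arrays.

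Of 45141 probe sets 28898 have 1 gene in the platform annotation, and 551 with several genes were left out. Each of the 17097 genes was represented by its probe set with the highest mean. Symbols were updated through Entrez identifiers, and 16936 genes matched the reference table. The annotation can be old. limma 3.58.1 in R 4.3.3 fitted a mean for each of 12 groups (29 residual and 2.63 prior degrees of freedom), and separately a 24 h cosine in each diet (35 residual degrees of freedom). No filter on low values was used. P-values of main probe sets were adjusted by Benjamini-Hochberg across the 17097 genes, and calls were made below 0.05. The other probe sets of the members were fitted separately, among all 28898 probe sets with 1 gene. Their p-values were adjusted across those, so they belong to another family of tests than the main values beside them. The fits were tested on simulated data. Plots used matplotlib 3.10.9 (Python 3.11.15).

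The members and lists were chosen with earlier results of these data known. All 10 members are named, and of each other list up to 4 genes with the largest difference among those called, plus the 5 genes most like the members by each of 2 measures. The heat map shows its 2 lists whole. The alternatives were the probe set rule, dim genes (mean below 6) left out, array weights, trended and robust eBayes, medians subtracted from arrays, a replicate block, a random block by time point, each array, ZT8 or ZT12 left out, and each time point fitted alone.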

Additional observations from a re-analysis of the deposited data

Results flagged for a closer look

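In each group of 4 arrays, the highest or lowest value of each gene was compared with the rest by Dixon's criterion. Of 70 groups tested 3 passed, and chance passes about 1 in 20. Klf6 in the first high fat replicate of ZT12 was at 11.74, where the other 3 arrays were at 11.94 to 11.96. Fosb in the first high fat replicate of ZT16 was at 12.93, with the others between 12.88 and 12.89. Junb in the fourth control replicate of ZT0 was at 9.73, with the others between 8.88 and 9.01.

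The diet difference varied between time points, by the F test of limma, for 6 genes. Adjusted p was 0.000421 for Klf6 and 0.000675 for Egr2, both of which were higher at ZT0 and lower at ZT8 and ZT12 on the high fat diet by estimate. It was 0.0102 for Fosb, 0.0232 for Egr1, 0.0286 for Atf3 and 0.0352 for the main probe set of Jun, with their largest differences at ZT12.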

How the results depend on the processing

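The count of 7 genes at ZT12 was 5 to 7 over the fits that left out an array, 6 when probe sets of a gene were averaged, 5 with the ZT12 arrays fitted alone (Atf3 at an adjusted p of 0.0699 and Fos at 0.128 were lost) and 7 with array weights or medians subtracted. At ZT0 the count of 1 was 2 with array weights, 0 with ZT0 fitted alone and 0 to 3 over left-out arrays. At ZT8 the count of 1 was 0 with averaged probe sets, array weights or ZT8 fitted alone, and 0 to 2 over left-out arrays. The diet average of 1 was 0 with the medians of the tested genes subtracted and without ZT8, ZT12 or both, and 0 to 1 over left-out arrays. Diet by time, at 6, was 2 without ZT12, 0 without ZT8 and ZT12, and 3 to 7 over left-out arrays. Time on the high fat diet, at 6, was 2 without ZT12, 1 without both and 6 to 7 over left-out arrays. Time on the control diet, at 7, was 3 without ZT8, 2 without both and 4 to 8 over left-out arrays. The cosine on the high fat diet, at 1, was 0 with trended and robust eBayes, either set of medians subtracted, the replicate block, the random block or no ZT12 arrays, 4 without ZT8 and 0 to 3 over left-out arrays. The control cosine ran from 0 to 1 over left-out arrays. The cosine difference, at 0, was 2 with array weights, 1 without ZT8 and 0 to 5 over left-out arrays. The causes were not tested, beyond the fewer arrays and coefficients of fits that leave arrays out.

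With the replicate number as a block, the count was 7 at ZT12, 6 for diet by time and 6 for time on the control diet. Arrays of the same number did not deviate together (mean r -0.0647 over 19 pairs, 0.0229 for different numbers), so the numbers were not taken as pairs. No result changed direction while called. Subtracting medians of the tested genes, leaving out ZT12 or ZT8 and ZT12 together, the contrasts of ZT12 with the other times and the motif TGACGT were chosen after seeing the data.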
